A study of Arabidopsis thaliana with 18 samples.

Results

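WSD1 (AT5G37300) and AT5G41900 are 2 of the 13286 Arabidopsis thaliana genes that a probe set names here, each read by 1 probe set among the 22746 tested. Both were chosen by measured values, their large falls under antimycin A in wild type, where 3 probe sets had a lower fitted change than WSD1 and 2 had a lower one than AT5G41900, ranks that rest in part on values at background level. The wild-type change and every comparison with wild-type arrays are therefore described for these genes and not tested, as is the change of AT5G41900 in rao1-2, which was already known to be large. The tests concern WSD1 in both mutants, AT5G41900 in rao1-1 and the differences between the mutants.

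The arrays were Affymetrix ATH1 arrays of whole green tissue from 14-day-old seedlings, grown on Gamborg B5 medium with 3% sucrose. The wild type is labelled Col:LUC, and the mutants are rao1-1 and rao1-2, 2 alleles named for the regulation of alternative oxidase 1a. The series title names the kinase gene CDKE;1, which no probe set is annotated to here and which was not analysed here. Each genotype was sprayed with 50 µM antimycin A, a blocker of respiratory complex III used to elicit mitochondrial retrograde signalling, or with deionised water as mock, and tissue was taken after 3 h. Each of the 6 groups held 3 arrays. Whether replicates were separate cultures is not stated, so each p-value reflects only how far these arrays varied, and that variation may be technical.

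The cuticle is the lipid layer that covers the epidermis of leaves and stems and limits water loss. Its waxes are made in epidermal cells from very-long-chain fatty acids, which are turned into alkanes or reduced to primary alcohols. WSD1 encodes the wax synthase that joins primary alcohols to fatty acids and so forms the wax esters of the Arabidopsis stem. AT5G41900 encodes a protein of the alpha/beta hydrolase fold, a family of mostly ester-cleaving enzymes, and the gene table used here gives it no further name. Both genes lie on chromosome 5.

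WSD1 was low in antimycin-treated wild type and was still measurable in both treated mutants. In wild type its intensities were 146, 110 and 120 on the 3 mock arrays and 6.32, 4.17 and 4.63 on the 3 antimycin A arrays. An intensity of 19.3 is the background limit, the least dense point between the dim and bright modes of all values, so all 3 treated arrays lay under it and only a bound can be given. The mean went from 125.6 ± 18.5 to 5.04 ± 1.14 (SD, n = 3), at least 6.46-fold lower, with a fitted log2 change of -4.65 ± 0.27 (SE).

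In rao1-1, WSD1 read 205, 153 and 194 under mock and 63.2, 45.9 and 63.4 under antimycin A. All 6 arrays were above the limit, and the treated arrays lay below the mock arrays without overlap. WSD1 thus fell 3.21-fold (log2 change -1.68 ± 0.27, adjusted p = 0.000176 by limma, n = 3 per group). In this comparison 24.8% of all probe sets were called lower, and 616 had a lower fitted change than WSD1. The mean intensity under antimycin A was 31.3% of that under mock.

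In rao1-2, WSD1 read 345, 331 and 553 under mock and 44.9, 27.1 and 54.7 under antimycin A. Replicate 3 of the mock arrays was the highest of all 18, and again no array fell under the limit and the groups did not overlap. The fall was 9.83-fold (log2 change -3.30 ± 0.27, adjusted p = 4.88e-07 by limma, n = 3 per group). Here 27.3% of all probe sets were called lower, and 34 had a lower fitted change. In whole tissue, a changed number of expressing cells and a changed transcript level per cell cannot be told apart. This holds for every change given here.

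**Figure D1:**
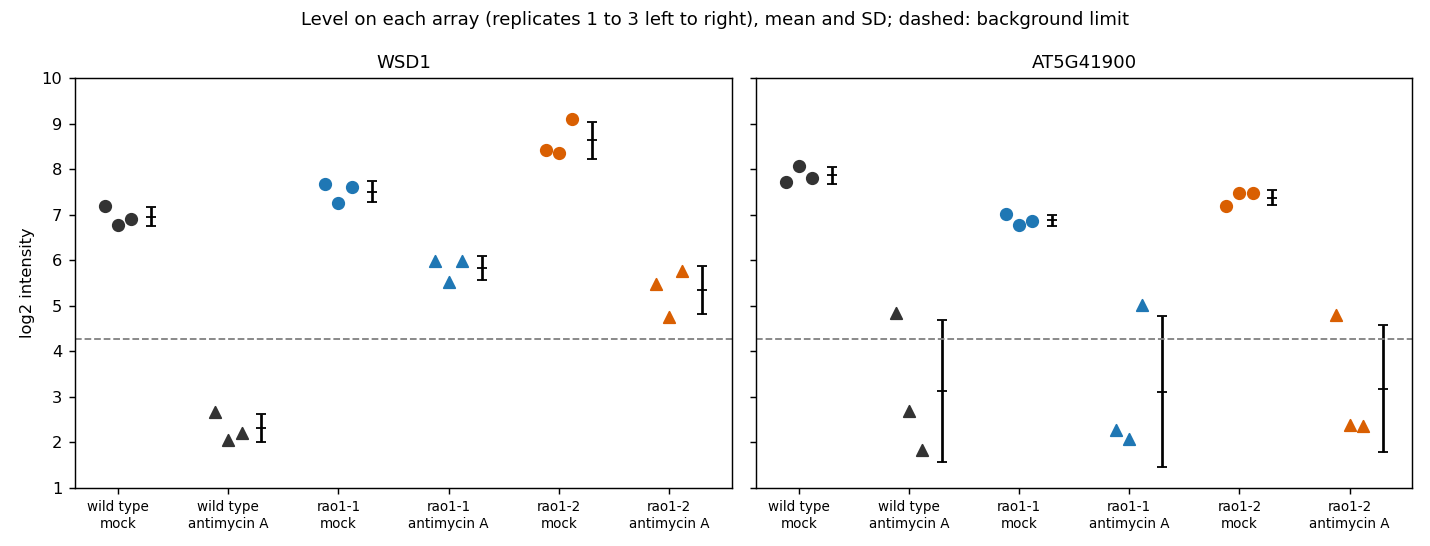
Log2 intensity of WSD1 (left) and AT5G41900 (right) on each of the 18 arrays, in the 6 groups. Circles are mock arrays, triangles antimycin A arrays, bars the mean and SD of 3 arrays, and the dashed line the background limit at 4.27. For WSD1 only the 3 treated wild-type arrays lie under the line; for AT5G41900 2 of 3 treated arrays do so in every genotype.

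Ordered by mean intensity, WSD1 was highest in rao1-2 mock (410 ± 124), then rao1-1 mock (184 ± 27.3), wild-type mock (125.6 ± 18.5), rao1-1 antimycin A (57.5 ± 10.03), rao1-2 antimycin A (42.2 ± 14.0) and wild-type antimycin A (5.04 ± 1.14, SD, n = 3). The 3 mock groups did not overlap with each other. The 2 treated mutant groups overlapped, and each lay above the treated wild-type arrays, at least 2.95-fold for rao1-1 and at least 2.1-fold for rao1-2.

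The mutants could be compared with each other by a test. Under mock WSD1 was 2.18-fold higher in rao1-2 than in rao1-1 on the fitted scale, without overlap, but the difference did not pass (log2 difference 1.13 ± 0.27, 95% interval 0.55 to 1.70, adjusted p = 0.213 by limma). Of the alternative fits, only the one with a replicate block gave a pass (adjusted p = 0.0442 by limma). In the main fit of this comparison 0.145% of probe sets were called. Under antimycin A the difference was -0.49 ± 0.27 (95% interval -1.07 to 0.09, adjusted p = 0.633 by limma), where 0.101% of probe sets were called. The response of WSD1 was larger in size in rao1-2 than in rao1-1 by a fitted -1.61 ± 0.38 (95% interval -2.43 to -0.80), which did not pass either (adjusted p = 0.317 by limma). In that contrast 0% of all probe sets were called (0 of 22746), and 1504 had an unadjusted p under 0.05 by limma.

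How far WSD1 fell in wild type, set against the mutants, depends on how the dim wild-type values are read. On the fitted scale wild type changed by -4.65, rao1-1 by -1.68 and rao1-2 by -3.30. The mean mutant response was thus 2.16 ± 0.33 less negative than that of wild type, 2.97 ± 0.38 for rao1-1 and 1.36 ± 0.38 for rao1-2. With every value raised to at least the background limit, the wild-type change was -2.69 and the mutants' values stayed as they were. The difference from wild type was then 1.01 for rao1-1 and -0.60 for rao1-2, a change of sign for rao1-2. At the limit the wild-type fall is only a lower bound on its size. Its order against the measured fall in rao1-2 is therefore not settled. The fall in rao1-2 began at a mock level 3.19-fold above that of wild type (log2 difference 1.68 ± 0.27), and that in rao1-1 at one 1.46-fold above it (0.55 ± 0.27).

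**Figure D2:**
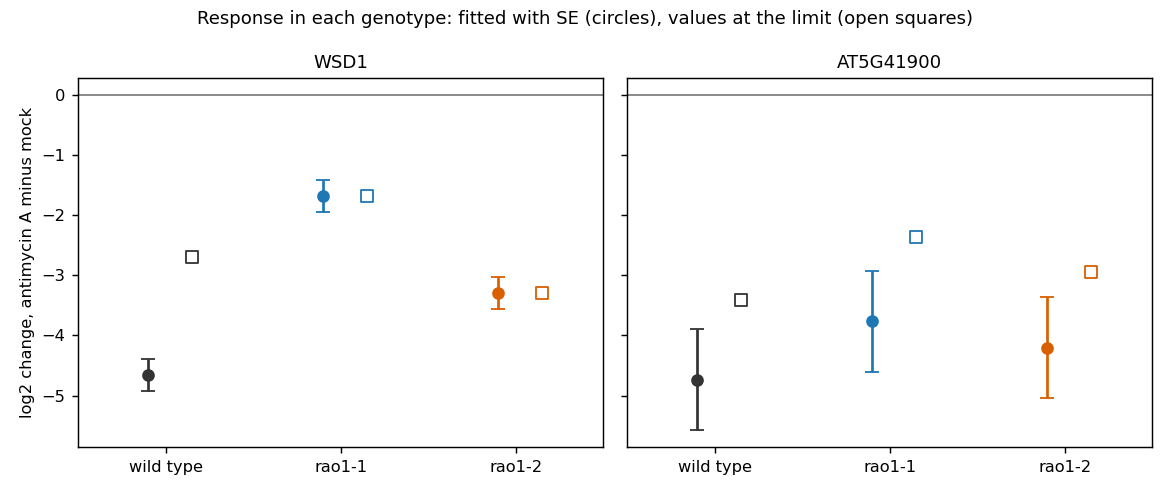
Log2 change under antimycin A in wild type, rao1-1 and rao1-2, for WSD1 (left) and AT5G41900 (right). Circles are fitted values with their SE, and open squares are the same difference after raising dimmer values to the background limit. The square of WSD1 in wild type, a bound at -2.69, lies between those of the mutants at -1.68 and -3.30.

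AT5G41900 reached the background in treated seedlings of every genotype. In wild type it read 211, 268 and 224 under mock and 28.9, 6.49 and 3.57 under antimycin A, means of 234 ± 29.7 and 13.0 ± 13.8 (SD, n = 3). Replicate 1 of the treated arrays was the only one of the 3 above the limit. The fitted change was -4.74 ± 0.84 (26.7-fold lower), and with values at the limit -3.40 (at least 10.6-fold lower).

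In rao1-1, AT5G41900 read 130, 109 and 116 under mock and 4.78, 4.18 and 32.5 under antimycin A. Here replicate 3 was the treated array above the limit, and the groups did not overlap. The gene fell 13.6-fold on the fitted scale (log2 change -3.77 ± 0.84, adjusted p = 0.00241 by limma, n = 3 per group) and at least 5.13-fold with values at the limit (-2.36).

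In rao1-2, AT5G41900 read 146, 178 and 178 under mock and 27.6, 5.23 and 5.12 under antimycin A. Replicate 1 was the treated array above the limit. The fitted change was -4.20 ± 0.84 (18.4-fold lower), or -2.94 (at least 7.66-fold lower) with values at the limit. The SE of 0.84 is shared by all groups: within a group the log2 values had an SD of 1.40 to 1.66 under antimycin A, against 0.13 to 0.18 under mock.

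Under antimycin A the mean level of AT5G41900 was 13.0 ± 13.8 in wild type, 13.8 ± 16.2 for rao1-1 and 12.7 ± 13.0 for rao1-2 (SD, n = 3). Their ranges overlapped, and rao1-2 differed from rao1-1 by 0.06 ± 0.84 (95% interval -1.77 to 1.89, adjusted p = 0.988 by limma). At levels this near the background a difference between genotypes was not detectable.

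Under mock the order of AT5G41900 was wild type (234 ± 29.7), rao1-2 (167 ± 18.2) and rao1-1 (118 ± 10.5), with no overlap between neighbours. The fitted difference from wild type was -0.99 ± 0.84 for rao1-1 and -0.49 ± 0.84 for rao1-2, and the SE was 0.11 and 0.13 when only the compared arrays were fitted. Between the mutants it was 0.50 ± 0.84 (95% interval -1.33 to 2.33, adjusted p = 1.00 by limma), and 0.50 ± 0.11 when only the arrays of these 2 groups were fitted (adjusted p = 0.618 by limma). Under mock, wild type was thus the highest genotype for AT5G41900 and the lowest for WSD1.

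The fitted difference in response of AT5G41900 from wild type was 0.97 ± 1.19 for rao1-1 and 0.53 ± 1.19 for rao1-2. With values at the limit, where the dim arrays no longer vary, these were 1.04 ± 0.32 and 0.46 ± 0.32. On that scale the differences under antimycin A were only 0.06 and -0.02. On the fitted scale they were -0.01 and 0.05, and under mock the differences were -0.99 and -0.49 on both scales. On both scales the difference in response thus lies mostly in the mock levels. With treated arrays near the background, a weaker response cannot be told apart from a lower mock level, and this was not tested. Between the mutants the fitted difference was -0.44 ± 1.19 (95% interval -3.03 to 2.15, adjusted p = 1.00 by limma), and -0.58 ± 0.32 with values at the limit (adjusted p = 0.965 by limma). For WSD1 the differences in response from wild type were 2.97 for rao1-1 and 1.36 for rao1-2 fitted, and 1.01 and -0.60 at the limit.

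Both genes were then placed among the other probe sets that fell in wild type by at least 8-fold, a fitted log2 change of -3 or lower, from mock arrays all above the limit. There were 72 of these besides the members, and since they were chosen by the same wild-type change, the counts are a description. That choice favours high mock and low treated values in wild type. It tends to make mutant differences from wild type lower under mock and higher under antimycin A, by an amount that was not tested. With values at the limit, 35 of the 72 had a lower wild-type change than WSD1 (-2.69) and 8 a lower one than AT5G41900 (-3.40). Under mock the median difference of rao1-2 from wild type was -0.51 over the 72, and 0 of them lay above the 1.68 of WSD1. For rao1-1 the median was -0.37, and 4 lay above the 0.55 of WSD1. With values at the limit, the difference under antimycin A was 1.56 for WSD1 in rao1-1, where 1 of the 72 was higher, and 1.07 in rao1-2, where 6 were higher. On all 3 treated wild-type arrays 32 of the 72 lay under the limit. Of the 72, 0 lay there while being above the limit on all 6 treated mutant arrays, as WSD1 did. For AT5G41900 the mock difference was -0.99 in rao1-1, where 54 of the 72 were higher, and -0.49 in rao1-2, where 35 were higher.

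**Figure D3:**
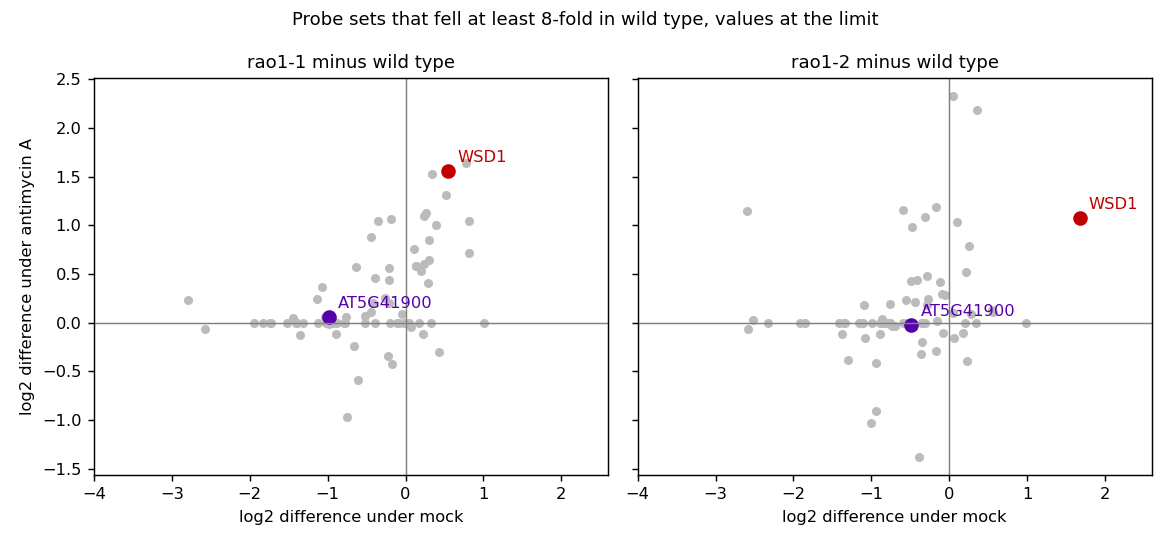
Differences of rao1-1 (left) and rao1-2 (right) from wild type under mock (horizontal, log2) and under antimycin A (vertical, log2), after raising dimmer values to the background limit. Grey points are the 72 other probe sets that fell at least 8-fold in wild type. WSD1 lies at 0.55 and 1.56 in rao1-1 and at 1.68 and 1.07 in rao1-2, while AT5G41900 lies near 0 under antimycin A in both.

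Of 84 listed cuticle genes besides the members, 13 had a named probe set. In wild type 1 of the 13 was called higher and 3 lower, where 43.2% of all probe sets were called and 28.8% called lower. The 3 lower calls in wild type became 1 with values at the limit or with a pseudocount of 16, and 1 or 2 without any single wild-type array (1 without mock replicate 3 or antimycin A replicate 2). In rao1-1 1 was higher and 2 lower (40.6% of all called), and in rao1-2 2 were higher and 3 lower (42.9% of all called). The median log2 change of the 13 was 0.00 in wild type, 0.05 for rao1-1 and 0.04 for rao1-2, against 0.00, 0.04 and 0.03 over all probe sets. Of the 13, AT1G72110, AT3G49190, AT4G24140, AT5G17720 and AT1G02190 lay under the background limit on all arrays. The wild-type median is the value of AT3G49190 and the rao1-2 median that of AT5G17720. These medians thus do not show whether expressed cuticle genes changed.

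Of the loci listed as relatives of WSD1, 4 had a named probe set, and none carries a symbol in the gene table. AT3G49210 was above the limit on all arrays and fell a little, from 156 to 116 in wild type (-0.41 ± 0.16, adjusted p = 0.0495 by limma), with -0.82 ± 0.16 in rao1-1 (adjusted p = 0.000776) and -0.65 ± 0.16 in rao1-2 (adjusted p = 0.00369). AT5G12420 read 141 and 273 in wild type under mock and antimycin A and was not called in any genotype (0.91 ± 0.42, adjusted p = 0.0985 by limma in wild type). AT1G72110 and AT3G49190 stayed under the limit on all 18 arrays.

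The listed loci near AT5G41900 in the list of hydrolase genes around BDG1 were all dim. AT4G24140 and AT5G17720 lay under the limit on all 18 arrays, and AT5G17780 was above it on 1 mock array of rao1-2. AT5G17780 was nevertheless called lower in wild type (-1.16 ± 0.44, adjusted p = 0.0445 by limma) and rao1-2 (-1.34 ± 0.44, adjusted p = 0.0223), as a difference between values that are nearly all at background. BDG1 itself, an epidermal hydrolase gene needed for an intact cuticle, has no named probe set and was not analysed here.

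Among the genes that supply wax precursors, AT4G13840, known as CER26 and needed to elongate very-long-chain fatty acids in leaves, fell strongly in every genotype. It went from 1228 to 224 in wild type (-2.47 ± 0.20, adjusted p = 4.41e-07 by limma), from 1130 to 311 in rao1-1 (-1.87 ± 0.20) and from 1200 to 235 in rao1-2 (-2.38 ± 0.20). FATB, a plastid thioesterase gene that releases saturated fatty acids for wax, rose instead, from 1486 to 2292 in wild type (0.63 ± 0.11, adjusted p = 0.000432 by limma), with 0.47 ± 0.11 in rao1-1 and 0.94 ± 0.11 in rao1-2. The alkane list had 1 dim locus, AT1G02190 (0.06 ± 0.05 in wild type, adjusted p = 0.408 by limma), and the cutin list 1 locus near the limit, AT5G33370 (0.19 ± 0.87, adjusted p = 0.913).

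Of the regulators, AT5G61590 is DEWAX, a transcription factor known to repress wax genes. It rose in rao1-2, from 2037 to 4783 (1.26 ± 0.29, adjusted p = 0.00291 by limma), and was not called in wild type (3027 and 4425, 0.59 ± 0.29, adjusted p = 0.131) or rao1-1 (2057 and 2210, 0.05 ± 0.29, adjusted p = 0.909). The difference in its response between the mutants was 1.22 ± 0.42 (adjusted p = 0.615 by limma). SHN3, an activator of cuticle genes, was under the limit on all arrays but 1. For the difference in response between both mutants and wild type, 0 of the 13 cuticle genes were called by limma, 0 had an unadjusted p under 0.05, and 0.396% of all probe sets were called.

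**Figure D4:**
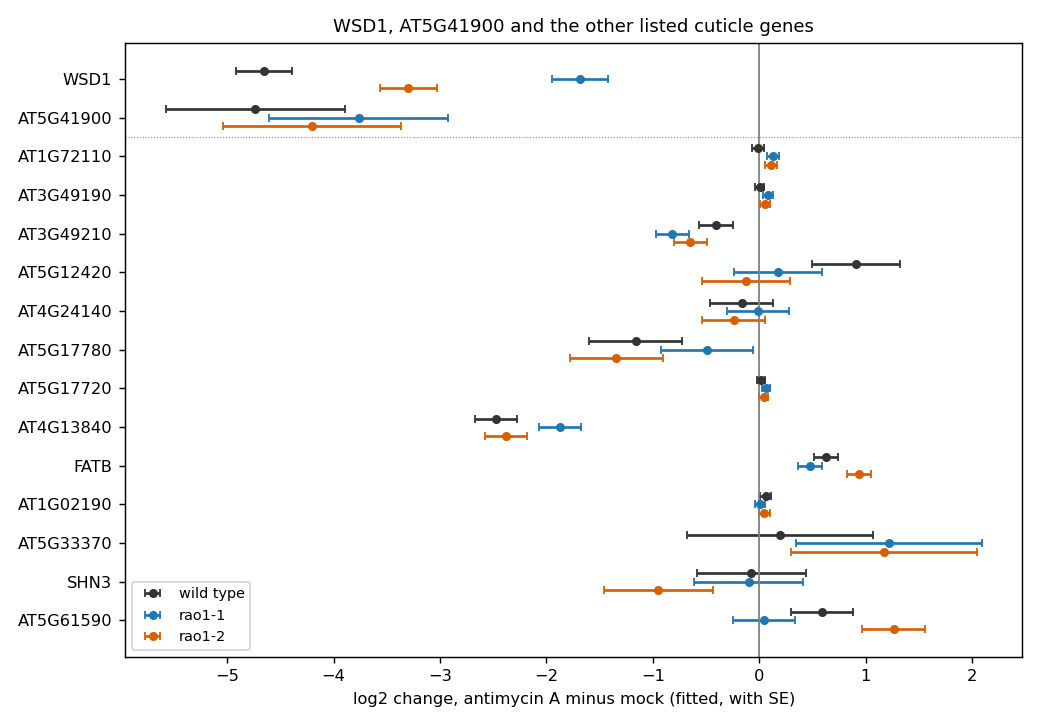
Fitted log2 change under antimycin A with its SE, for WSD1, AT5G41900 and the 13 other listed cuticle genes with a named probe set, in wild type, rao1-1 and rao1-2. AT4G13840 lies between -2.47 and -1.87, FATB between 0.47 and 0.94.

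The tissue label was checked with marker genes. The leaf genes RCA and LHCB4.1 had group means of at least 17279, and the root hair gene EXPA7 lay under the limit on all 18 arrays. The root gene PYK10 was present at group means of 462 to 1118, with single arrays from 54.6 (rao1-2 mock) to 1466 (rao1-1 mock). The named epidermal marker, the receptor kinase gene CR4 (ACR4), 1 of 6 listed, was under the limit on all treated arrays, so its falls are bounds. They were at least 2.43-fold in wild type (47.6 to 12.3, adjusted p = 0.00147 by limma), at least 1.33-fold for rao1-1 (25.9 to 12.05, adjusted p = 0.038) and at least 1.53-fold for rao1-2 (30.1 to 9.93, adjusted p = 0.00449). Of the guard cell lineage, FMA (FAMA), a transcription factor gene, fell by 1.94, 1.12 and 1.60 on the log2 scale, and AT1G22690 changed by 0.16, 0.04 and 0.12 and was not called. The part of these cell types in the changes of WSD1 and AT5G41900 was not tested. The named suberin gene FACT was under the limit on all mock arrays and not called in wild type (1.40 ± 0.71, adjusted p = 0.134 by limma). Of the abscisic acid response genes, COR47 rose in rao1-2 from 1981 to 3594 (0.87 ± 0.33, adjusted p = 0.0472 by limma), where wild type read 3806 and 3974. Its difference in response from wild type was not called (0.84 ± 0.47, adjusted p = 0.61 by limma), and COR15A was not called in any genotype.

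Control probe sets were also read. Mean log2 intensity of 25S ribosomal RNA under mock and antimycin A was 12.81 and 13.65 for wild type, 12.96 and 14.20 for rao1-1, and 12.98 and 14.03 for rao1-2. Its part in the results was not tested. Scaled to the 22 poly(A) controls or the 12 hybridisation controls in place of the deposited scaling, WSD1 changed by -1.90 and -1.94 for rao1-1 and by -3.60 and -3.50 for rao1-2, and AT5G41900 by -3.99 and -4.02 for rao1-1. Replicate 1 of rao1-2 mock had the lowest mean correlation with its group (0.985 against up to 0.995), and without it the change of WSD1 in rao1-2 was -3.40.

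The genes whose log2 values over the 18 arrays followed WSD1 most closely, of 8489 candidates, were GAPC2 (r = 0.98), which encodes a cytosolic glyceraldehyde-3-phosphate dehydrogenase, AT1G09310 (r = 0.95), AT4G18970 (r = 0.94), AT2G16460 (r = 0.94) and AT1G19140 (r = 0.93). These are Pearson correlations between arrays that fall into mock and treated groups, given as a description. GAPC2 had mean intensities under mock and antimycin A of 12962 and 9218 for wild type, 14238 and 12332 for rao1-1, and 15627 and 11660 for rao1-2. Its order of groups was that of WSD1 at far smaller fold changes, which its choice by likeness over the same arrays favours. AT1G09310 and AT1G19140 also had that order, while AT4G18970 and AT2G16460 did not. AT1G09310 had 29213 and 8180, 37272 and 17139, and 38777 and 13618 in the same groups.

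For AT5G41900 the closest genes were AT3G60510 (r = 0.97), AT3G59650 (r = 0.97), AT3G12390 (r = 0.97), AT4G16155 (r = 0.96) and AT5G25520 (r = 0.96). AT3G60510 had mean intensities of 102.1 and 48.5 for wild type, 80.1 and 50.0 for rao1-1, and 91.4 and 44.3 for rao1-2. Its mock order of wild type, rao1-2 and rao1-1 was that of AT5G41900. AT5G25520 also had this order, while AT3G59650, AT3G12390 and AT4G16155 did not. All were chosen by likeness over these same arrays, so a shared order is a description. WSD1 and AT5G41900 correlated with each other at r = 0.74, which placed AT5G41900 at rank 1159 for likeness to WSD1.

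Genes next to the members were looked up by gene order in the gene table, a choice made after the members' values were seen. On either side of WSD1, AT5G37290 had log2 changes of -1.16 ± 0.26 (wild type), -1.42 ± 0.26 (rao1-1) and -0.97 ± 0.26 (rao1-2), and AT5G37310 by -1.34 ± 0.25, -1.43 ± 0.25 and -1.50 ± 0.25. All 6 of these changes were called lower, with adjusted p of at most 0.00704 by limma, where 28.8%, 24.8% and 27.3% of all probe sets were called lower. One gene further out, AT5G37280 had means of 4.48 to 4.68, under the limit. Beside AT5G41900, AT5G41890 had means of 5.84 to 7.05, also under the limit. The next gene, POLA3 (AT5G41880), fell in rao1-2 (-0.90 ± 0.22, adjusted p = 0.0039 by limma) and was not called in wild type (-0.45 ± 0.22, adjusted p = 0.125) or rao1-1 (-0.35 ± 0.22, adjusted p = 0.203).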

How the data were processed

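Per the labels, 18 Affymetrix ATH1 arrays were hybridised with RNA from 6 groups of 3. The authors deposited normalized linear intensities. The submitters' processing notes list both RMA and GCRMA without saying which made these values. Intensities ranged from 1.61 to 64819.8, with array medians of 78.0 to 92.1. Such normalization aligns the arrays, and a change is therefore one against most other probe sets. Coordinates are not printed, for want of a stated build. The number of arrays limits the precision.

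The log2 of each intensity was modelled by group (limma 3.58.1, R 4.3.3) over all 18 arrays, with 12 residual degrees of freedom and eBayes. The 64 control probe sets were left out, and two-sided p-values were adjusted by Benjamini-Hochberg over 22746 probe sets, with calls under 0.05. Intervals use the SE and 12 degrees of freedom. The fit was tested on simulated data in which a probe set had the same spread in every group. That does not cover AT5G41900, whose spread differed between mock and antimycin A.

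Probe sets were named by the platform annotation and RefSeq (TAIR10.1): 13513 name 1 gene, 503 several and 8794 none, and 13436 matched. A gene with several probe sets is given by the brightest. A value under the background limit is a bound. The limit was set after the values were seen (log2 4.27, 61.9% of values above it). Folds against a group wholly under it are "at least", with those values set to the limit. So are the folds of AT5G41900 with values at the limit, where most treated arrays lay under it.

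Members and gene lists were chosen with earlier results of these data known. Named genes are the members, the named relatives of each, up to 4 called genes per other list or else the one with the smallest p, and the 5 genes most correlated with each member; other names are stated as such. The replicate numbers were checked for pairing: deviations of same-numbered arrays correlated at 0.14, 0.15 and 0.13 between rao1-2 mock and antimycin A, and at -0.10 to 0.27 in wild type and -0.05 to 0.19 in rao1-1. Every pair passed 0.1 only within rao1-2 and between treated wild type and treated rao1-2; the block changed no call of either gene there.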

Additional observations from a re-analysis of the deposited data

How the results depend on the processing

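Alternatives were the compared groups alone, a replicate block, centring on poly(A) or hybridisation controls, a floor at the background limit, a pseudocount of 16, a filter on dim probe sets, an intensity trend and leaving out each array. The called falls of WSD1 in rao1-1 and rao1-2 and of AT5G41900 in rao1-1 stayed called under every alternative run, with adjusted p of at most 0.00145, 0.00148 and 0.0156 by limma. Dim values limit the rest. With the floor and with the pseudocount, the WSD1 change in wild type was -2.69 and -2.74, its difference in response from wild type 1.01 and 1.30 for rao1-1, -0.60 and -0.12 for rao1-2 (reversed) and 0.20 and 0.59 for both mutants, and its difference under antimycin A 1.56 and 1.80 for rao1-1 and 1.07 and 1.44 for rao1-2. AT5G41900 changed by -3.40 and -3.21 in wild type and by -2.94 and -2.76 in rao1-2. These settings raise the dim values by construction. Centred on hybridisation controls, AT5G41900 differed from wild type by -0.80 in rao1-1 mock (cause not tested). With the replicate block, the WSD1 difference of 1.13 between the mutants under mock passed (adjusted p = 0.0442 by limma, 0.0442 to 0.619 over the alternatives). Deviations of same-numbered mock arrays of the mutants correlated at 0.26, 0.19 and -0.03, so not every pair passed 0.1. The block changed no other call of either gene.

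Leaving out single arrays, the WSD1 difference in response from wild type lay between 1.14 and 1.65 for rao1-2. Cuticle genes called in wild type numbered 1 lower with the floor and 1 with the pseudocount; without single arrays, 1 to 2 were lower (1 without WT mock replicate 3 or WT antimycin A replicate 2) and 1 to 2 higher (2 without WT antimycin A replicate 1). In rao1-1, 0 were higher with poly(A) centring, 0 higher and 5 lower with hybridisation centring, and 3 higher with the trend; in rao1-2, 6 were lower with either centring. Probe sets called between the mutants numbered 2 under mock and 3 under antimycin A with the compared groups alone, 23 to 185 and 14 to 113 without single arrays, and 0 to 57 for the response. For both mutants against wild type they numbered 56 to 298. Without rao1-2 mock replicate 1 these counts were 185, 57 and 298; 177, 171 and 56 were called in the last without WT mock replicate 3, WT antimycin A replicate 1 or rao1-1 mock replicate 2; and 113, 58, 14 and 43 under antimycin A without rao1-1 replicate 1 or 2 or rao1-2 replicate 2 or 3.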
